A study of Mus musculus with 6 samples.

Results

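The genes described here encode the proteins that bring an insulin granule to the beta-cell plasma membrane and fuse it there. Members were a list of 33 genes, chosen with earlier results of these data known. Each was linked to its locus in the deposited transcript assembly, out of 39470 loci in all. All 33 were linked and 32 had a locus of their own that could be tested; the locus holding Vamp2 also holds Per1 and is given apart. The islets came from C57BL/6 mice killed at the age of 14 weeks after 8 weeks on 1 of 2 diets, normal (3 libraries) or high fat (3 libraries), the latter a model of diet-induced obesity. C57BL/6 is an inbred laboratory strain, and both groups share strain, age and tissue. The labels do not say which animals, or how many, each library came from, so p-values rest on the spread of these 6 libraries, part of which may be technical.

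Regulated exocytosis works in steps. Rab3 and Rab27, small GTPases on the granule, bind effectors that tether the granule at the membrane. Munc13 and CAPS proteins then ready it, and the SNARE proteins (VAMP on the granule, syntaxin and SNAP-25 on the plasma membrane) zip together to fuse it. Synaptotagmins and Doc2 proteins sense calcium, complexins and tomosyn restrain or shape the fusion step, and NSF with its adaptor alpha-SNAP takes spent SNARE complexes apart. Glucose closes potassium channels in the beta cell and lets calcium in, which is what this machinery answers to.

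Promoter sequences of 6 members are printed because these genes carry the contrasts described below: the Rab3 paralogues Rab3d and Rab3c, which moved in opposite directions, the SNARE genes Vamp8 and Stx1a, which also did, and Unc13a and Ptprn2, which held a match to both arms of the RE1 site. RE1 is bound by REST, a repressor of neuronal genes in non-neuronal tissues. Each sequence is from RefSeq on GRCm38.p6, runs 5′ to 3′ on the gene's strand, and covers 250 bases before to 50 bases after an annotated start. Capitals mark matches, on either strand, to the motifs searched. The GC box was searched as GGGCGG, the CCAAT box by its name, the TATA box as TATAAA, the E-box as CACGTG and the cyclic AMP response element (CRE) as TGACGTCA. The left arm of RE1 was searched as TTCAGCACC and the right arm as GGACAGC, and adjoining or overlapping matches run together. Rab3d is at chr9:21918134-21918433 (minus strand), Rab3c at chr13:110280157-110280456 (minus), Vamp8 at chr6:72390618-72390917 (minus), Stx1a at chr5:135023232-135023531 (plus), Unc13a at chr8:71671708-71672007 (minus) and Ptprn2 at chr12:116485470-116485769 (plus).
Rab3d: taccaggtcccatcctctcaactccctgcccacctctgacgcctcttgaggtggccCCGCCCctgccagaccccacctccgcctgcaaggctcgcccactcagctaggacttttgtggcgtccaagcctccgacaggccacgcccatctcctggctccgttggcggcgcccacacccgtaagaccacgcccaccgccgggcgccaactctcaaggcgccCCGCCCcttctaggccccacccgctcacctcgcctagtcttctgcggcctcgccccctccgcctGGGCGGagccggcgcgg
Rab3c: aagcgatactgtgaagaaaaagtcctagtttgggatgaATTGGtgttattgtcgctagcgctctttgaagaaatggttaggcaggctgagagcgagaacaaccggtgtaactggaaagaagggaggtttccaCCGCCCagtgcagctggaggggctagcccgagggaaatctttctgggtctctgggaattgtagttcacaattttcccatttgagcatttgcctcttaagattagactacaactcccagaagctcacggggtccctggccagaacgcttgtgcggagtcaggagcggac
Vamp8: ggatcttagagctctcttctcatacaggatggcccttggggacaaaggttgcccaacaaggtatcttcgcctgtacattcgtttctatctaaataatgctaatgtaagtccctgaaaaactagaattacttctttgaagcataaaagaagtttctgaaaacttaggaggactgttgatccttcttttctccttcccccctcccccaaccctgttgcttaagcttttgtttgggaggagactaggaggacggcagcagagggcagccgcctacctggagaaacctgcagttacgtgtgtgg
Stx1a: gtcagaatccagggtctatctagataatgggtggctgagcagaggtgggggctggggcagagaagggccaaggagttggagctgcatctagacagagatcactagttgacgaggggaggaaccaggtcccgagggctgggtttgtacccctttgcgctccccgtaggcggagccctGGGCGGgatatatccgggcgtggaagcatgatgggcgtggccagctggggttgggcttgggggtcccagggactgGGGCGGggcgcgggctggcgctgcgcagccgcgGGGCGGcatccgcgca
Unc13a: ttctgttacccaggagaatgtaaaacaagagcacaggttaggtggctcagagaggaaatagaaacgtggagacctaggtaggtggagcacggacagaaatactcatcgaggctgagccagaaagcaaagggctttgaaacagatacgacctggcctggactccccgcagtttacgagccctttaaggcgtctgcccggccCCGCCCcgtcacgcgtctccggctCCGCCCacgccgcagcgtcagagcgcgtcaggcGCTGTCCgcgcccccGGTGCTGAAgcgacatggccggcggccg
Ptprn2: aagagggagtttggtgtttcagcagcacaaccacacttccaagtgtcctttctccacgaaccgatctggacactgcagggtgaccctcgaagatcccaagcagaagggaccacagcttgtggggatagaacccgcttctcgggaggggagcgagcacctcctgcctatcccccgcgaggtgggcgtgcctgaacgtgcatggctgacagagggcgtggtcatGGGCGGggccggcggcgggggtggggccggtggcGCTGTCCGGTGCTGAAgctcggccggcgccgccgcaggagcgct

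The Rab3d window is GC-rich at 71% with 26 CpG dinucleotides and 3 GC boxes, and the Stx1a window has 66.3%, 19 and 3. Rab3c, at 50.7% GC with 11 CpG, held 1 GC box and 1 CCAAT box. Vamp8 differed from these, at 46.7% GC with 5 CpG and no match to any motif searched. A promoter entry was found for 23 of the 33 genes, with a median GC content of 60.3% against 53% over 32544 windows of the same length. A GC box stood in 17 of the 23 (73.9%) and in 35.9% of all windows, a CCAAT box in 6 (26.1%) and in 37.4%, a TATA box in 1 (4.35%) and in 13.6%, an E-box in 4 (17.4%) and in 7.17%, and a CRE in 1 (4.35%) and in 1.80%. The left RE1 arm stood in 2 of the 23 windows (8.70%) and in 0.372% of all windows, and the right arm in 3 (13.0%) and in 6.59%. Unc13a and Ptprn2 held both arms, downstream of base 250 of the window and on the minus strand of the gene. The arms lay at bases 258 to 264 and 273 to 281 in Unc13a, and at 257 to 263 and 264 to 272 in Ptprn2. Each arm was searched alone, with no spacing between arms required, so neither window is shown to hold a whole RE1 site. These matches describe letters and were not set against binding data.

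Normal diet libraries held 104657337 to 133633996 counted reads and high fat libraries 106332715 to 135353777. Values below are TMM-normalised read counts scaled to library size (CPM). On the second principal component of all loci, high fat library 3 lay at 59.4 and its group mates at -32.3 and -25.5. Of 23983 loci tested, 10.8% passed an adjusted p of 0.05 in edgeR, 5.95% higher and 4.86% lower in high fat islets. Beta-cell markers summed to 61703 to 72079 CPM on the normal diet and 88449 to 107628 CPM on the high fat diet, led by Iapp, Ins2 and Ins1. The Ins1 and Ins2 loci share 61.6% and 18.4% of their exonic bases with a locus on the opposite strand. Their levels may therefore be understated, as for Syt7 below, and the order of these genes is uncertain. Mafa, Pdx1 and Sst had no linked locus, and those of Slc2a2, Nkx6-1 and Ttr shared over 90% of their exonic bases, so these were not read.

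Per kilobase of exonic bases of the locus, the most abundant member was Syt13, an atypical synaptotagmin, at 353 CPM per kb over the 6 libraries. It was followed by Sytl4 at 174, which encodes granuphilin, the Rab27 effector that docks insulin granules, and by Ptprn2 at 130, which encodes the granule membrane protein phogrin. Vamp8, Rab27a, Syt4 and Napa came next at 117, 115, 107 and 99.1 CPM per kb. The lowest 4 were Rab27b at 0.768, Doc2b at 0.645, Sytl2 at 0.514 and Cplx1 at 0.374. In 4 families 1 paralogue made most of the level: Rab27a made 99.2% of Rab27 CPM per kb on the normal diet, Sytl4 99.7% against Sytl2, Cplx2 99.0% against Cplx1, and Cadps 90.04% against Cadps2. The Rab3, Unc13 and Ptprn families were more evenly divided, with Rab3d at 56.7%, Unc13b at 54.2% and Ptprn2 at 62.3% on the normal diet. Snap25 stood at 8.44 CPM per kb of an assembled locus with 26.9 kb of exonic bases, of which 7.88% lie in known transcripts. On the 2.12 kb of known exons alone the same counts would give 107, so its place in this order is uncertain. The same holds for Rph3al (1.48, or 27.8 on known exons).

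**Figure D1:**
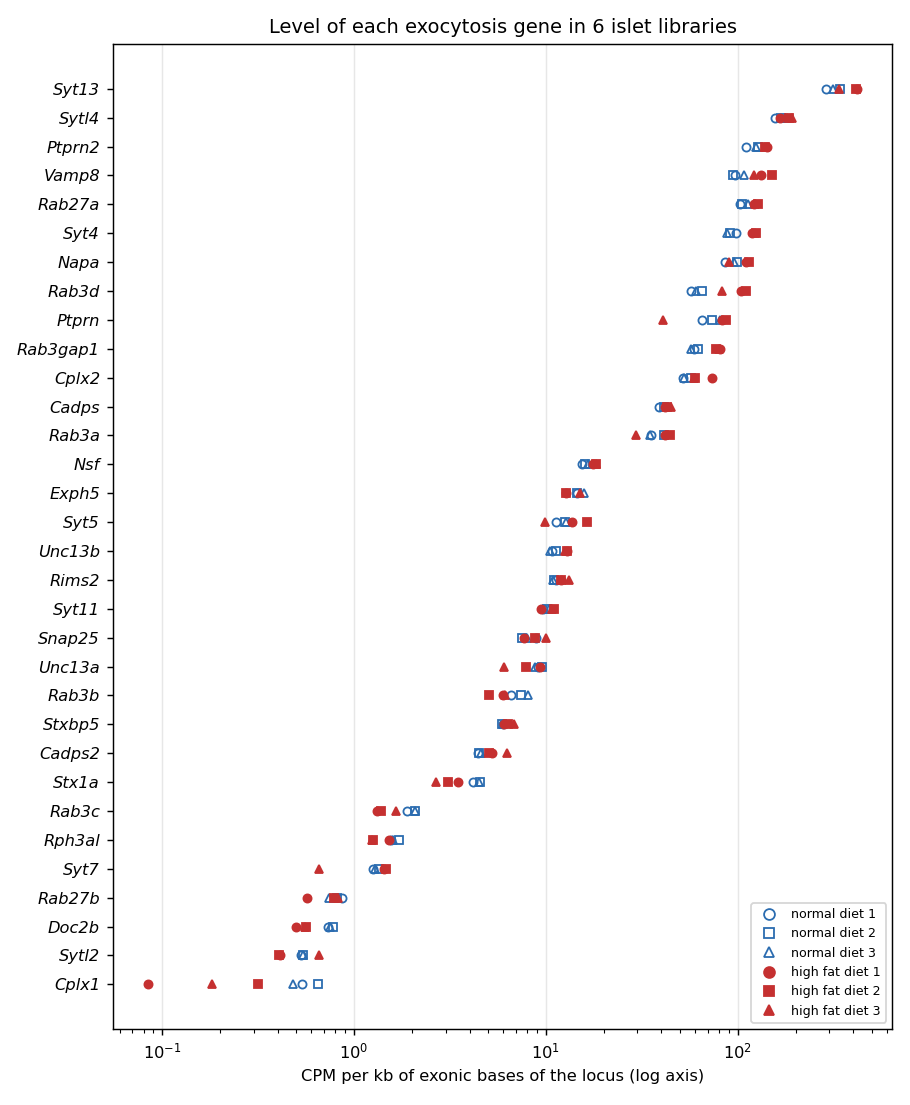
Level of each of the 32 members in the 6 libraries, as CPM per kb of exonic bases of the locus on a log axis; open blue symbols are normal diet libraries and filled red symbols high fat libraries. Syt13, Sytl4 and Ptprn2 lie at the top and Cplx1 at the bottom, and for most genes the diets lie close together on this scale.

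The diet comparison asked whether this machinery differed in islets of mice on the high fat diet. In edgeR, adjusted over all loci, 4 of 32 members were higher (12.5%), beside 5.95% of all loci, 8.71% of linked coding loci and 10.1% of those with a mean of at least 1 CPM. Another 4 were lower (12.5%), beside 4.86%, 3.08% and 2.73%. The members were chosen with earlier results of these data known, so these shares do not test for an excess. The genes that rose were Rab3d, Vamp8, Rab3gap1 and Syt4. Those that fell were Cplx1, Stx1a, Doc2b and Rab3c. The median log2 fold change of the members was 0.10, beside 0.10 for linked coding loci of at least 1 CPM and -0.05 for all loci tested. It turned sign under cyclic loess with limma, to -0.09 (7 positive, 25 negative), and with limma on the deposited scaled values divided by library totals, to -0.11 (10 positive, 22 negative). The median of linked coding loci of at least 1 CPM was 0.01 under cyclic loess and -0.11 on the scaled values over totals. All 3 high fat libraries lay above all 3 normal diet libraries for 12 members (18.8% of all loci) and below for 6 (20.4%), so 18 of 32 did not overlap (39.2% of all loci). Upper quartile factors in the same test gave 2 higher and 4 lower. Limma on the scaled values over library totals, which changes the test as well as taking out the TMM factors and shifts the median of all loci by -0.10, gave 1 and 8. Cyclic loess with limma, the replicate block and the acinar covariate each left 0 and 0, and so ended all 8 calls. At an unadjusted p under 0.05 they had 13, 15 and 12 of 32 members, beside 5446, 6767 and 5281 of 23983 loci. All 8 genes kept their direction under the 14 alternatives tried. So did Cadps2, Cplx2, Exph5, Rab3b, Rph3al, Sytl2, Unc13a and Unc13b, which were not called. The alternatives refit the same libraries, so a kept direction is no independent support.

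These calls need all 3 normal diet libraries and high fat libraries 1 and 2. Leaving out any of these 5 left 0 of the 32 members past the threshold by the same edgeR test. In these fits 11 to 14 members stood at an unadjusted p under 0.05, beside 5500 to 7029 loci. Adjusted p-values for the 8 genes were 0.053 to 0.15. Without normal diet library 1, 2 or 3, that test called 0 loci of any kind. Without high fat library 3 it called 8 members higher and 6 lower, beside 3075 and 1960 of all loci. The 8 genes passed again, and Syt13, Cplx2, Unc13b and Napa joined the rises at 0.41, 0.32, 0.26 and 0.27, and Rab3b and Exph5 the falls at -0.42 and -0.23.

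**Figure D2:**
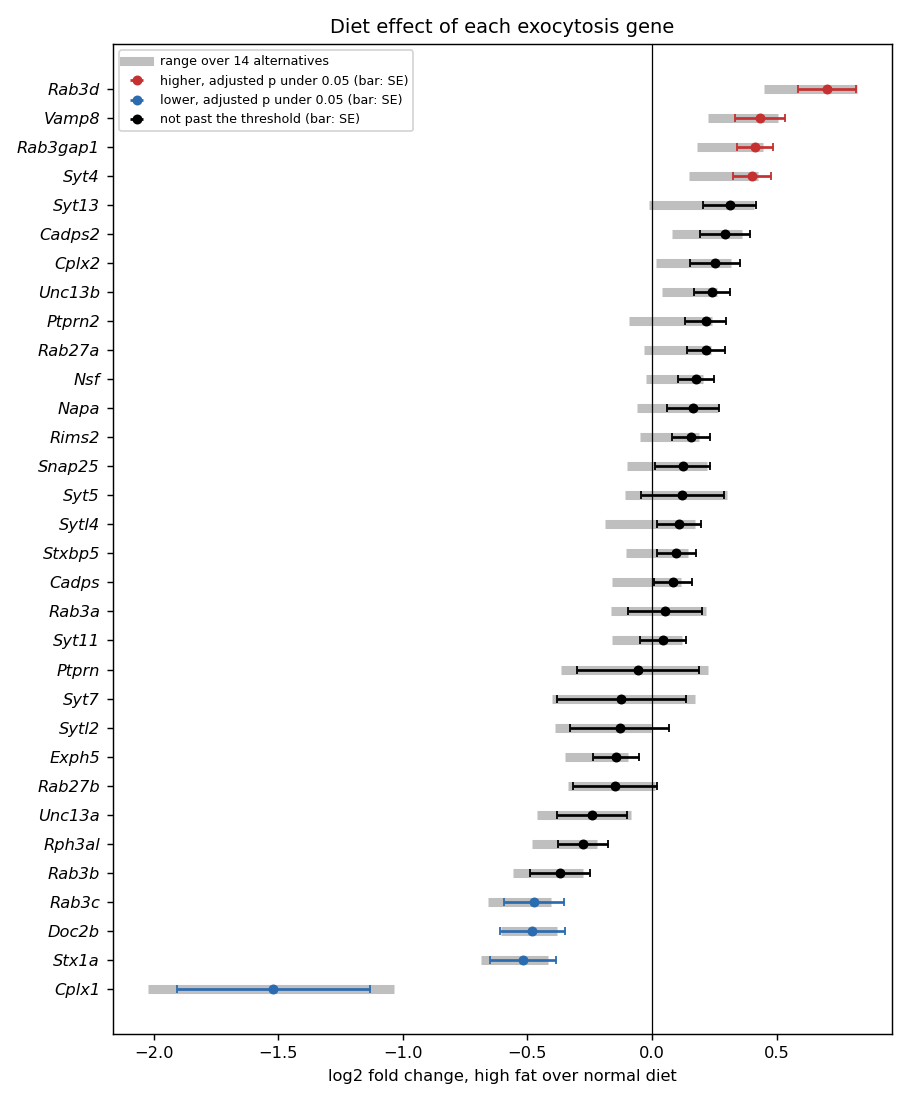
Log2 fold change of each member, high fat over normal diet, from edgeR (points, with SE bars), over the range of its values under 14 alternative settings (grey). The 4 genes in red and the 4 in blue have ranges that stay on their side of 0, as do some uncalled genes such as Cadps2 and Rab3b. Rab3a, Syt11, Snap25 and others cross it.

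Among the membrane SNAREs, Vamp8 rose and Stx1a fell. Vamp8 encodes endobrevin, a granule-side VAMP that also serves zymogen granules of acinar cells. It measured 76.3, 74.6 and 84.3 CPM on the normal diet and 104, 118 and 95.6 CPM on the high fat diet, with no overlap. The means were 78.4 ± 5.1 and 106 ± 12 CPM (SD, n = 3 libraries per diet), which is 0.43 on the log2 scale (SE 0.10, adjusted p = 0.035 by edgeR). The call was lost with upper quartile factors (0.36, adjusted p = 0.050, just over the threshold), under cyclic loess (0.27, adjusted p = 0.15) and on the scaled values over totals (0.22, adjusted p = 0.13). The locus spans 72335215 to 72340661 of chromosome 6, minus strand of mm9, the build of all locus coordinates here.

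Stx1a encodes syntaxin-1A, the plasma membrane SNARE of insulin granules. It measured 9.89, 10.7 and 10.6 CPM on the normal diet and 8.20, 7.29 and 6.30 CPM on the high fat diet. Every high fat library was below every normal diet library, and the log2 fold change came to -0.52 (SE 0.13, adjusted p = 0.043 by edgeR, 0.052 without the filter). The locus spans 135499415 to 135526972 of chromosome 5, plus strand. Snap25, the SNARE partner of syntaxin on the plasma membrane, overlapped between diets, at 238, 201 and 213 against 206, 236 and 268 CPM (log2 fold change 0.12, approximate 95% interval -0.10 to 0.34, adjusted p = 0.48). Of the exonic bases of its locus 7.88% lie in known transcripts, so these values may not describe the known exons alone. The locus of Vamp2, the main granule SNARE of the beta cell, runs from 68902004 to 68925065 on chromosome 11 and also holds the clock gene Per1. Its reads cannot be divided between them. Together they measured 75.4, 68.1 and 56.1 CPM on the normal diet and 57.8, 48.6 and 46.5 CPM on the high fat diet (-0.38, adjusted p = 0.083), and the diets overlap.

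Of the synaptotagmins and Doc2b, 1 of 6 rose, 1 fell and 4 did not pass. Syt4, a granule synaptotagmin that does not bind calcium in the usual way, measured 383, 354 and 345 CPM on the normal diet and 463, 483 and 480 CPM on the high fat diet. The high fat libraries lay close together and above all others (means 360 ± 20 and 476 ± 11 CPM, SD, n = 3 libraries; 0.40 on the log2 scale, SE 0.075, adjusted p = 0.025 by edgeR). The call was lost with upper quartile factors (0.33, adjusted p = 0.052), under cyclic loess (0.15, adjusted p = 0.27) and on the scaled values over totals (0.20, adjusted p = 0.13). The locus spans 31597462 to 31607069 of chromosome 18, minus strand. Doc2b, a calcium sensor of the exocytosis machinery, was low and fell, from 4.55, 4.85 and 4.69 CPM to 3.13, 3.51 and 3.46 CPM, with no overlap (-0.48, SE 0.13, adjusted p = 0.049). Its locus, on chromosome 11 from 75580597 to 75609559, held 339 to 669 reads a library, and DESeq2 size factors in edgeR or no filter moved its adjusted p to 0.053 and 0.062.

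Syt13 measured 1151, 1364 and 1244 CPM on the normal diet and 1665, 1652 and 1349 CPM on the high fat diet. High fat library 3 fell inside the normal diet range, and the gene did not pass (0.31, adjusted p = 0.087). Syt7, a calcium sensor for insulin secretion, showed the same library more sharply: 20.8, 22.3 and 21.4 CPM on the normal diet, 23.9 and 24.4 in high fat libraries 1 and 2, and 10.9 in high fat library 3. Its log2 fold change was -0.12 with all libraries and 0.17 without that library (adjusted p = 0.78 and 0.17). The Syt7 locus shares 85.02% of its exonic bases with a locus on the opposite strand, and whether counting used strand is not given in the sources used here. The loci of Slc2a2 and Ttr, which share 100% of their exonic bases and 0 on the same strand, held 0 reads in every library. The Syt7 level may therefore be understated. Syt5, another calcium sensor of beta-cell granules, had 31.0, 34.9 and 35.2 CPM against 37.8, 45.04 and 27.2 (0.12, adjusted p = 0.65), and Syt11, which does not bind calcium, 48.2, 50.8 and 52.0 against 46.9, 55.0 and 53.9 (0.04, adjusted p = 0.78).

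Among the Rab GTPases and their regulator Rab3gap1, 2 of 7 rose, 1 fell and 4 did not pass, and a rise and a fall stood in the same family. Rab3d measured 249, 284 and 263 CPM on the normal diet and 452, 482 and 359 CPM on the high fat diet. The lowest high fat library was above the highest normal diet library (means 265 ± 18 and 431 ± 64 CPM, SD, n = 3 libraries; 1.63-fold, or 0.70 on the log2 scale, SE 0.12, adjusted p = 0.020 by edgeR). Under cyclic loess the value was 0.45 (adjusted p = 0.073). The locus spans 21711544 to 21722641 of chromosome 9, minus strand. Rab3c measured 16.5, 18.03 and 18.1 CPM on the normal diet and 11.5, 12.02 and 14.3 CPM on the high fat diet (-0.47, SE 0.12, adjusted p = 0.043), again without overlap. The locus spans 110844396 to 111071204 of chromosome 13, minus strand. Rab3b, at 22.2, 25.2 and 27.5 against 20.2, 17.1 and 20.7 CPM, was lower in every high fat library but did not pass (-0.37, adjusted p = 0.079). Rab3a, the synaptic paralogue, overlapped, at 63.6, 73.98 and 62.9 against 75.02, 79.8 and 53.2 CPM (0.05, approximate 95% interval -0.24 to 0.35, adjusted p = 0.84).

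Shares within a family do not change with a library's scale factor. Rab3d made 56.6%, 56.3% and 57.2% of Rab3 CPM per kb in normal diet islets and 67.9%, 68.5% and 68.8% in high fat islets. The libraries of each diet lay within 1 percentage point of each other, and the means were 56.7 ± 0.47% and 68.4 ± 0.47% (SD over 3 libraries; 2-sided exact permutation test, p = 0.1, the smallest 3 against 3 can give). The share of Rab3a went from 34.6 ± 1.3% to 26.5 ± 1.6%, that of Rab3b from 6.87 ± 0.71% to 4.04 ± 1.0% and that of Rab3c from 1.88 ± 0.091% to 1.03 ± 0.30%, each with the same exact permutation p of 0.1. Shares of a family sum to the whole, so a larger Rab3d share lowers the others and these are not separate results. The CAPS and complexin shares also gave p = 0.1 by this exact permutation test. No stretch of 100 bases, the read length, was common to the known transcripts of any pair of these paralogues (0 shared among 2413 to 11945 stretches per gene).

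**Figure D3:**
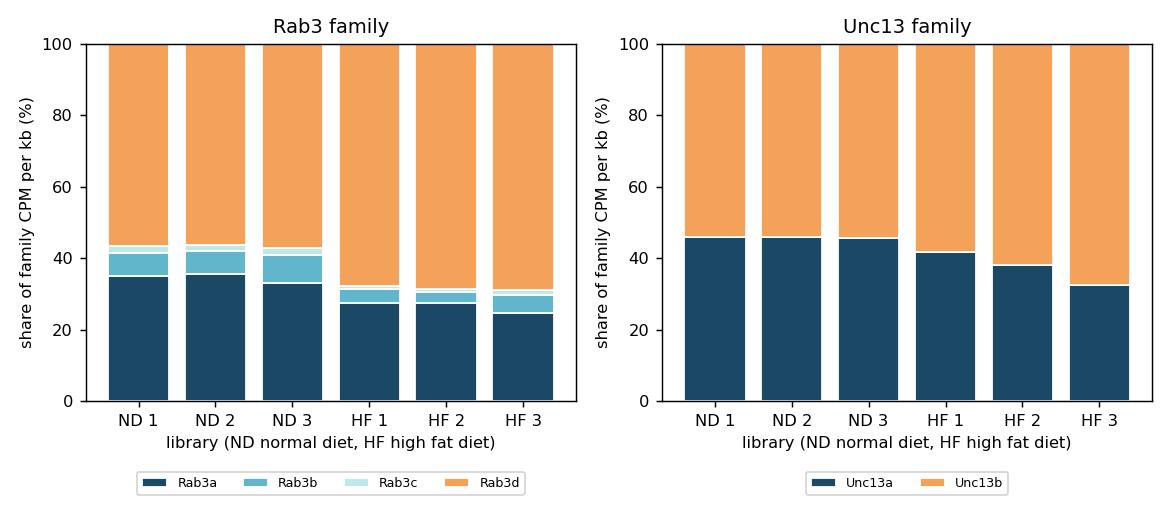
Share of each paralogue in the summed CPM per kb of its family, in percent, for the Rab3 family (left) and the Unc13 family (right) in each library. The Rab3d share is 56.3% to 57.2% in normal diet libraries and 67.9% to 68.8% in high fat libraries; the Unc13a share is 45.7% to 45.9% and 32.5% to 41.7%.

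Rab3gap1, the catalytic subunit of the complex that returns Rab3 to its GDP form, rose with Rab3d. It measured 251, 263 and 243 CPM on the normal diet and 343, 326 and 340 CPM on the high fat diet (means 252 ± 9.7 and 336 ± 9.0 CPM, SD, n = 3 libraries; 0.41 on the log2 scale, SE 0.073, adjusted p = 0.022 by edgeR). The call was lost under cyclic loess (0.18, adjusted p = 0.17) and on the scaled values over totals (0.21, adjusted p = 0.093). The diets did not overlap and each varied little within itself. The locus spans 129765350 to 129840453 of chromosome 1, plus strand. Rab27a, which recruits granuphilin to insulin granules, was higher in every high fat library, at 334, 344 and 370 against 399, 418 and 401 CPM, and did not pass (0.22, adjusted p = 0.091). Rab27b, the less abundant paralogue, overlapped at 4.26 to 6.55 CPM over all libraries (-0.15, adjusted p = 0.58).

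None of the 5 Rab effectors passed (edgeR, 1 at an unadjusted p under 0.05; DESeq2 0). Sytl4 measured 784, 840 and 899 CPM against 831, 924 and 964, with overlap (0.11, approximate 95% interval -0.07 to 0.28, adjusted p = 0.43). Rims2, a scaffold that binds Rab3 at release sites, was 105, 103 and 101 against 111, 111 and 122 CPM, without overlap (0.16, adjusted p = 0.20). Rph3al, which encodes the Rab effector Noc2, was lower in every high fat library, at 66.7, 73.3 and 67.7 against 65.0, 53.4 and 53.0 CPM (-0.28, adjusted p = 0.10). Of the exonic bases of its locus 5.33% lie in known transcripts, so these values may not describe the known exons alone. Exph5, which encodes the Rab27 effector Slac2-b, had 167, 168 and 182 against 147, 147 and 174 CPM (-0.15, adjusted p = 0.31), and Sytl2, another Rab27 effector, 3.61 to 5.81 CPM in all libraries (-0.13, adjusted p = 0.69).

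**Figure D4:**
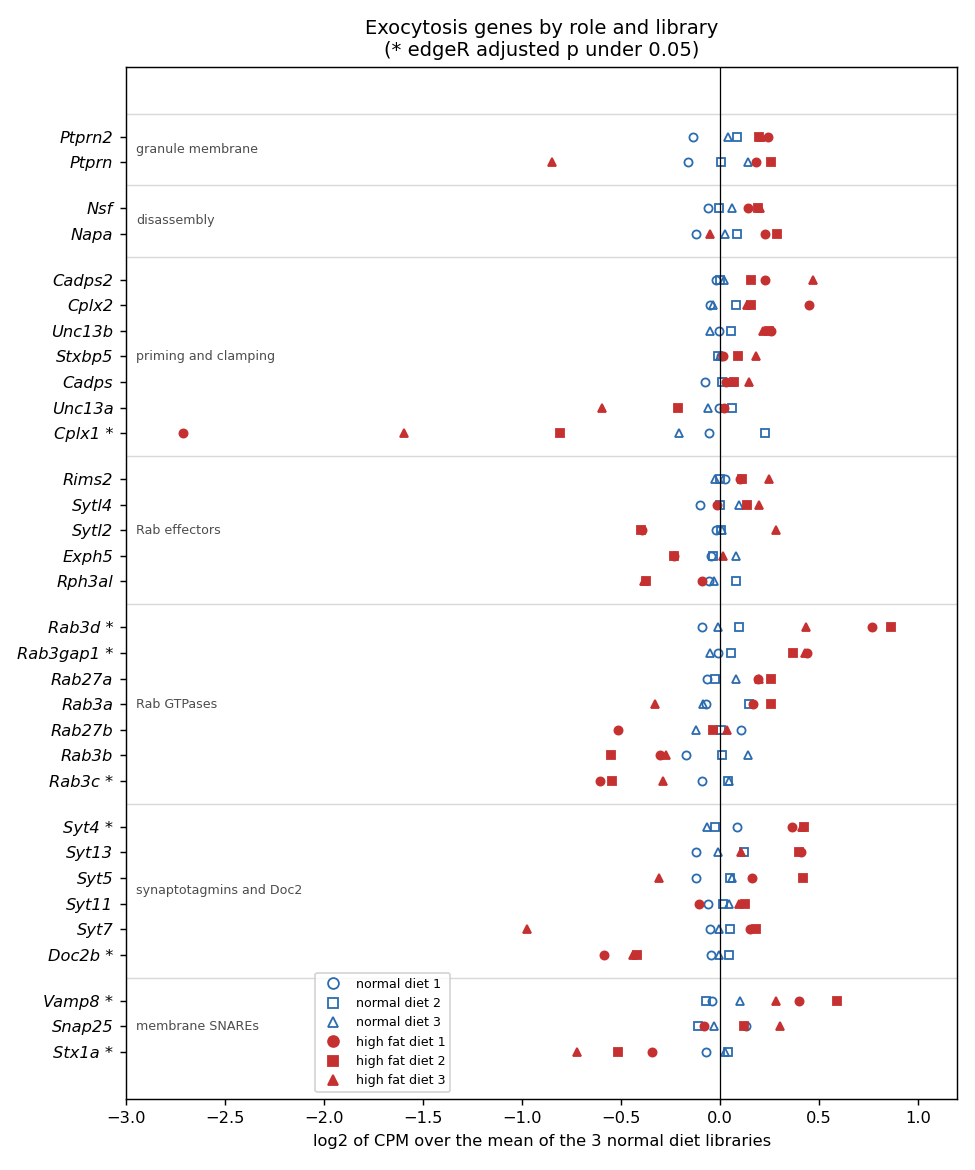
CPM of each member in each library over the mean of the 3 normal diet libraries, on a log2 axis, grouped by role; asterisks mark the 8 genes past an adjusted p of 0.05. High fat library 3 (filled triangles) lies well left of the other high fat libraries for Syt7, Ptprn, Syt5, Rab3a and Unc13a.

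Of 7 priming and clamping genes, Cplx1 fell and 6 did not pass. Complexins clamp and promote SNARE zippering, and Cplx1, a mainly neuronal paralogue, was the least abundant member, with 21 to 156 reads a library. It measured 1.17, 1.42 and 1.05 CPM on the normal diet and 0.185, 0.694 and 0.401 CPM on the high fat diet. Each high fat library was below each normal diet library, though the high fat libraries differed among themselves by more than the diets' nearest libraries did (-1.52, SE 0.39, adjusted p = 0.043). Without high fat library 1 the value was -1.15 and without high fat library 2 it was -2.02 (adjusted p = 0.070 and 0.057). The locus spans 108947573 to 108979046 of chromosome 5, minus strand. Cplx2, the main islet complexin, was higher in every high fat library, at 263, 288 and 266 against 372, 304 and 299 CPM, and did not pass (0.25, adjusted p = 0.12).

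Unc13a and Unc13b encode Munc13 priming proteins. Unc13b measured 133, 139 and 129 CPM on the normal diet and 160, 159 and 155 on the high fat diet, without overlap (0.24, SE 0.072, adjusted p = 0.062; 0.050 by DESeq2, just past the threshold). Unc13a measured 118, 124 and 114 against 120, 103 and 78.5 CPM, with overlap (-0.24, adjusted p = 0.27). As a share of the pair per kb, Unc13a made 45.8 ± 0.11% in normal diet islets and 37.4 ± 4.6% in high fat islets (SD over 3 libraries; 2-sided exact permutation test, p = 0.1, the smallest possible). The CAPS genes, whose products act in granule priming, stood at 336, 357 and 369 against 362, 372 and 392 CPM for Cadps (0.08, adjusted p = 0.48) and 39.1, 39.7 and 40.3 against 46.4, 44.3 and 55.0 CPM for Cadps2 (0.29, adjusted p = 0.089), with no overlap for the second. Stxbp5, which encodes tomosyn, an inhibitor that occupies syntaxin, measured 76.2, 75.3 and 75.9 against 76.6, 80.7 and 86.1 CPM, barely without overlap (0.10, approximate 95% interval -0.06 to 0.25, adjusted p = 0.42).

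Neither gene of SNARE disassembly passed (edgeR, 1 of 2 at an unadjusted p under 0.05; DESeq2 0). Nsf, the ATPase, measured 130, 135 and 141 against 149, 155 and 156 CPM (0.18, adjusted p = 0.14), and Napa, its adaptor alpha-SNAP, 201, 232 and 222 against 256, 266 and 211 CPM (0.16, adjusted p = 0.31). Ptprn and Ptprn2 encode IA-2 and phogrin, phosphatase-like proteins of the granule membrane that set granule stores and are autoantigens in type 1 diabetes. Ptprn2 was higher in every high fat library, at 980, 1142 and 1106 against 1272, 1235 and 1243 CPM, and did not pass (0.22, adjusted p = 0.11). Ptprn had 271, 304 and 334 CPM on the normal diet, 344 and 362 CPM in high fat libraries 1 and 2, and 168 CPM in high fat library 3. Its log2 fold change was -0.06 with that library and 0.23 without it (adjusted p = 0.90 and 0.11).

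High fat library 3 lay below the other high fat libraries for some members and above them for others. It was the lowest of all 6 libraries for 7 members, namely Syt7, Ptprn, Syt5, Rab3a, Unc13a, Stx1a and Rph3al. Syt7 was 2.21-fold and Ptprn 2.1-fold lower there than the mean of high fat libraries 1 and 2. In 13 of 32 members it was below both of these libraries and in 12 above both, with Sytl2 1.60-fold higher. The coefficient of variation within a diet had a median of 11.6% on the high fat diet and 5.23% on the normal diet, and was larger on the high fat diet for 24 of 32 members. The 7, 13, 12 and 24 were not counted over all loci, so they describe the members alone and mark no trait particular to them.

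Markers of other cells moved with some of these genes. In bulk RNA, fewer cells of a type and less RNA per cell cannot be told apart. Of 10 Schwann and nerve markers, 4 fell and 0 rose, and their summed level was 58.9 to 61.6 CPM on the normal diet and 44.9 to 55.4 CPM on the high fat diet. None of them was at 0. The neuronal genes Chat and Prph ranked the high fat libraries as Cplx1 did, lowest in library 1 and highest in library 2. Chat had 1.02, 0.857 and 0.870 CPM on the normal diet and 0.0618, 0.538 and 0.239 CPM on the high fat diet. Of 6 alpha-cell markers 3 fell and 0 rose, and their sum was 27140 to 29935 CPM against 23352 to 26018 CPM, while Gcg itself did not pass (-0.29, adjusted p = 0.080). Of 8 beta-cell markers tested, 3 rose (Iapp, G6pc2 and Pcsk1) and 0 fell. Of 6 stromal markers 2 rose (Rgs5, 0.69, and Acta2, 0.83) and 0 fell, with sums of 336 to 415 CPM on the normal diet and 427 to 550.3 CPM on the high fat diet. Rgs5 makes most of these sums, with means of 235 and 380 CPM. The other 4 had a negative log2 fold change, among them Col1a1 (-1.37), Col1a2 (-0.65) and Col3a1 (-0.44), none past the threshold. The median of the list was -0.22. Of 3 myeloid markers 1 fell (Csf1r, -0.50), with sums of 40.2 to 46.9 CPM and 32.3 to 43.9 CPM. The part of beta, stromal or myeloid cells in any result was not tested. The part of nerve or alpha cells in the falls of Cplx1, Stx1a, Doc2b and Rab3c was not tested.

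Acinar cells use Rab3d and Vamp8 on their zymogen granules. Acinar markers took 0.469%, 0.850% and 0.756% of counts in normal diet islets and 0.572%, 1.199% and 1.03% on the high fat diet (2-sided exact permutation test, p = 0.4; the smallest possible is 0.1). The difference in mean share was 0.243 percentage points, 0.425 without high fat library 1 and 0.111 without high fat library 2. Of 21 acinar markers tested, 1 rose and 0 fell, while 20 had a positive log2 fold change, with a median of 0.59. In the same order of libraries, Rab3d stood at 249, 284 and 263 CPM on the normal diet and 452, 482 and 359 CPM on the high fat diet. Vamp8 stood at 76.3, 74.6 and 84.3 CPM and at 104, 118 and 95.6 CPM. With the acinar level as a covariate the log2 fold changes were 0.67 for Rab3d and 0.40 for Vamp8 (adjusted p = 0.095 and 0.14), in a fit that called 0 loci of any kind. The part of acinar cells in the rises of Rab3d and Vamp8 was not tested.

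**Figure D5:**
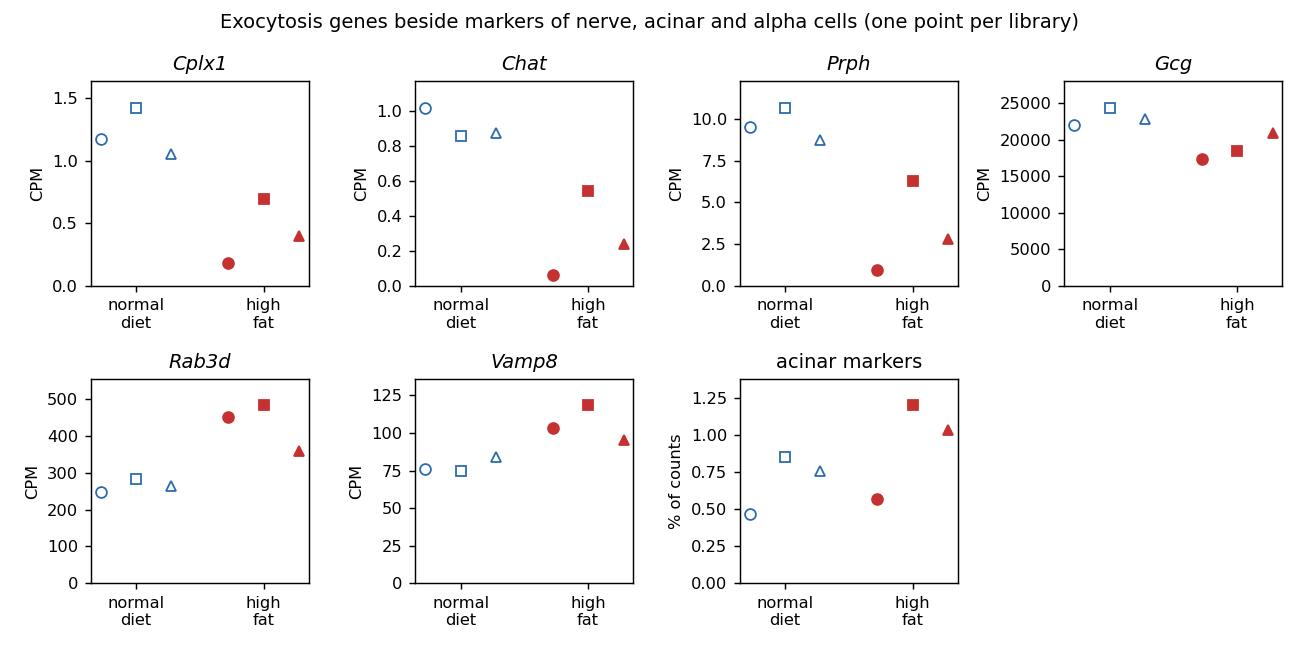
CPM of Cplx1 beside the nerve markers Chat and Prph and the alpha-cell marker Gcg (top), and of Rab3d and Vamp8 beside the acinar share of counts (bottom), with 1 point per library; circles, squares and triangles are libraries 1, 2 and 3 of each diet, and axes start at 0. Cplx1, Chat and Prph order the high fat libraries alike, and Rab3d is at 359 CPM or more in all 3 high fat libraries.

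Other genes of the pathway were read from a list of 99, also chosen with earlier results of these data known. Of the 99, 96 were linked and 85 had a usable locus that was tested. Of these 5 were higher (5.88%) and 6 lower (7.06%), beside 5.95% and 4.86% of all loci, with a median log2 fold change of 0.07. The rises with the smallest adjusted p were Snap23, the widely expressed relative of Snap25, from 74.3, 75.1 and 68.5 to 96.9, 91.5 and 103 CPM (0.42, adjusted p = 0.027), Snap29 (0.39), Ica1, an islet autoantigen gene (0.33), and Stxbp6, which encodes the syntaxin-binding protein amisyn (0.41). The falls were Otof, which encodes the calcium sensor otoferlin (-1.03), Stxbp5l, which encodes tomosyn-2, Mlph, which encodes the Rab27 effector melanophilin (-0.55), and Syt2, a fast calcium sensor (-1.08), with 89.4% of its exonic bases shared. Stxbp5l measured 58.7, 59.8 and 68.4 CPM on the normal diet and 29.3, 26.8 and 39.6 CPM on the high fat diet, with no overlap (-0.96, SE 0.15, adjusted p = 0.019 by edgeR), beside the value of 0.10 for Stxbp5. The remaining calls, named after their values were seen, were Stx12 (0.30), Apba2 (-1.40) and Syt1 (-0.62).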

How the data were processed

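Islet RNA was depleted of ribosomal RNA and sequenced from both ends from a stranded kit without poly(A) selection, per the labels' protocols. The submitters' processing notes name TopHat2 2.0.8, Cufflinks 2.1.1, HTSeq 0.5.4p3, edgeR and build mm9, with no order or settings; whether counting used strand is not given in the sources used here. The authors deposited raw counts for 39470 loci, a second table of scaled values, and 98161 assembled transcripts. In that table, whose unit is a scaled signal, the authors multiplied each library's counts by a constant of 0.906 to 1.10; dividing it out gave whole reads within 0.001 for 100% of values. Count columns name the diets ND and HDR. ND was read as normal diet and HDR, not spelled out, as high fat, so every direction rests on that reading.

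The transcript file gives no symbols. A locus was linked to a GENCODE M21 gene on the same chromosome and strand by the ordered lengths of its introns and internal exons, each measured in its own build. With introns shifted by 7 bases 0 transcripts matched, against 40099. All 33 members were linked by a full chain. Genes whose locus shared over 90% of exonic bases were skipped.

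After filterByExpr, which kept 23983 loci, and TMM factors, edgeR 4.0.16 (quasi-likelihood test, R 4.3.3) was run for diet alone, two-sided, adjusted by Benjamini-Hochberg over all loci, threshold 0.05. SE is the absolute log2 fold change over the square root of F, and approximate 95% intervals are 1.96 SE each way. This normal approximation is too narrow for so few libraries. The interval of Rims2, 0.005 to 0.31, excludes 0 at an unadjusted p of 0.073 by edgeR. Alternatives used limma 3.58.1 (pseudocount 0.5 on the scaled values) and DESeq2 1.42.0. Members and lists were chosen with earlier results of these data known. Named are all members with a usable locus, up to 4 pathway genes in each direction with the smallest adjusted p, and abundant cell markers; Chat and Prph were chosen after their values were seen.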

Additional observations from a re-analysis of the deposited data

How the results depend on the processing

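Counts below are higher then lower in high fat islets, against 1426 and 1165 for all loci, 4 and 4 for the members and 5 and 6 for other exocytosis genes. DESeq2 gave 2244 and 1824, 5 and 4, and 9 and 12. Upper quartile factors gave 562 and 1159, 2 and 4, and 0 and 8. Without a filter the members were 4 and 2. Cyclic loess with limma gave 249 and 232, 0 and 0, and 0 and 2, and limma on the deposited scaled values over library totals 310 and 3200, 1 and 8, and 0 and 15. The acinar covariate left 0 and 0 in each, with 12 members and 5281 loci at an unadjusted p under 0.05. Leaving out 1 library at a time gave 0 to 3075 and 0 to 1960 over all loci, 0 to 8 and 0 to 6 members, and 0 to 16 and 0 to 11 other exocytosis genes; the highest values are those without high fat library 3.

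With the replicate block the counts were 54 and 20 over all loci, 0 and 0 members and 0 and 1 other exocytosis genes. In that fit 15 members and 6767 loci stood at an unadjusted p under 0.05. Same-numbered libraries shared only a number: their deviations correlated at -0.075, 0.075 and -0.014, and only high fat library 2 correlated best with its own number.

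The 8 called members kept their sign throughout. Members that turned direction passed no threshold in either fit. Under cyclic loess these were Snap25 (-0.0997), Stxbp5 (-0.054), Syt13 (-0.012), Syt5 (-0.0013), Syt11 (-0.080), Rab3a (-0.10), Rab27a (-0.031), Sytl4 (-0.19), Cadps (-0.16), Rims2 (-0.016), Ptprn2 (-0.092), Napa (-0.059) and Nsf (-0.012). On the scaled values over totals they were Snap25 (-0.085), Stxbp5 (-0.11), Syt5 (-0.11), Syt11 (-0.16), Rab3a (-0.17), Sytl4 (-0.095), Cadps (-0.12), Rims2 (-0.047), Napa (-0.043) and Nsf (-0.024). Upper quartile factors gave -0.020 for Syt11 and -0.019 for Rab3a, and the acinar covariate -0.028 for Syt11. Leaving out a library turned Syt7 (0.17) and Ptprn (0.23) without high fat 3, Syt5 (-0.045) and Rab3a (-0.051) without high fat 2, Rab3a (-0.00037) and Rab27b (0.011) without high fat 1, Syt11 (-0.0077) without normal 1, and Rab3a (-0.0069) and Ptprn (0.0030) without normal 3. The other end of their ranges over left-out libraries was -0.30 for Syt7, 0.30 for Syt5, 0.12 for Syt11, 0.22 for Rab3a, -0.25 for Rab27b and -0.24 for Ptprn. The cause was not tested. Summing over every linked locus was not run, since each member has 1 locus. Skipping loci with over 50% shared bases left 4 and 4 members.

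With 3 libraries per diet an exact permutation test cannot go below 0.1. Depth limits Cplx1 most, at 21 to 156 reads a library.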
